A study of Macaca mulatta with 38 samples.

Results

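Barcodes of low abundance that were found in T, B, Gr and Mono cells of 1 rhesus macaque are described here. They were chosen from the counts: a barcode had to be listed, that is to have a count above 0, in at least 1 library of day 119 or later in each of the 4 lineages and in at least 1 Gr or Mono library of day 119 or 187. It also had to stay under 0.2% of the reads in every library and to be at 0 in every nRBC library. 2544 of 44423 barcodes met the rule. 2898 barcodes were listed in all 4 lineages from day 119, and 2752 of them in Gr or Mono at day 119 or 187. The nRBC condition then removed 142 and the ceiling 66.

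The animal, ZL34, was a male of 4 years whose CD34+ blood stem and progenitor cells were mobilised with G-CSF and AMD1300 (the spelling of the labels), transduced at a multiplicity of infection of 25 with a barcoded lentivirus library and returned after TBI. It received cidofovir at 5 mg/kg each week, and all libraries share this treatment. DNA of peripheral blood gave 9 T, 8 B, 7 Gr and 7 Mono libraries from day 32 to day 553, 5 nRBC libraries from day 266, 1 EOS library at day 494 and 1 CD34p library at day 553. There was 1 library per cell type and day and 1 animal, so nothing was replicated, and every ± below is an SD over days. The labelled cell types could not be checked against marker genes, since the table holds barcode counts only.

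A lentiviral barcode is a short DNA tag that integrates into the genome of a stem or progenitor cell and passes to all its descendants. A tag found in granulocytes, monocytes, B cells and T cells marks output of a cell, or of cells sharing the tag, to both the myeloid and the lymphoid branch. Granulocytes and monocytes live briefly in blood and reflect recent production, whereas T and B cells can persist for long after they were made. A cell transduced more than once carries several tags, so a barcode is not the same as a clone. Shares of a library sum to a fixed total, so a lower share of one barcode cannot be told apart from growth of others.

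Column sums ran from 766039 reads (T of day 494) to 3832849. No count from 1 to 100 occurs in the table, and a 0 is read here as at most 100 reads, an inferred limit that equals 0.00261% to 0.0131% of a library. The members lay close to it. Their highest share in any library had a median of 0.0279% and ran from 0.00437% to 0.1997%, and the median count of the members listed in a library was 107 to 574 reads outside the T library of day 32. A count of 101 has an exact 95% Poisson interval of 82.3 to 123 reads and a count of 400 one of 362 to 441, which covers counting error alone because amplified reads carry no molecular identifiers. A member missing from a library may therefore have been present under the limit, and the listings below can miss members for this reason. They are not strict lower bounds. Whether a listing of few reads stands for cells of that lineage was not examined.

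The tags of the members named below are shown first, so that the barcodes described can be identified by sequence. The first 6 bases, in lower case, are the start common to most of the library, and the capitals run to the base before the sequencing adapter, which was removed from the print. The adapter start was not found letter for letter in bc206 and bc2361, and all 50 bases of these are given. Barcodes are numbered by mean share over all 38 libraries. The members listed in the most libraries, or highest in B and T, were:
bc116: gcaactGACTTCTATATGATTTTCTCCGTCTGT
bc73: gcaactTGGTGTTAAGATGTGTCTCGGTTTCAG
bc82: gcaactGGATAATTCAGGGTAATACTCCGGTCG
bc83: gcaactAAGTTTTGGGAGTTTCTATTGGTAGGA
bc85: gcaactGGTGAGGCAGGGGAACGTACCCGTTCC
bc99: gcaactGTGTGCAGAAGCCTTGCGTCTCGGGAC
bc134: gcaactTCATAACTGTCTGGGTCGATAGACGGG

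The members with the highest mean share in Gr or Mono beside bc73, those seen last in Gr or Mono, the one seen in CD34p, and the pair with the most similar time course were:
bc141: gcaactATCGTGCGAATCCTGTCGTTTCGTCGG
bc206: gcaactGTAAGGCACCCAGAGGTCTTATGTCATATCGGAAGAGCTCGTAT
bc202: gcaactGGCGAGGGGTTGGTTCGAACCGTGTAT
bc244: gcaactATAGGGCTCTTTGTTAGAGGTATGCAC
bc565: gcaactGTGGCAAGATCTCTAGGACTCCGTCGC
bc755: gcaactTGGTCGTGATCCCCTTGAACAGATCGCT
bc2361: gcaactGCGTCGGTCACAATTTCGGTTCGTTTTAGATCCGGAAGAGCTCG
bc2273: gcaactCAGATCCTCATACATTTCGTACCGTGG
bc2368: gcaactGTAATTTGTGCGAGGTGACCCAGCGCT
bc2485: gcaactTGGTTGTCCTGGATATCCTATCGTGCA

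The sequences of the members resembled those of the whole table. 98.2% of the members and 98.5% of all barcodes began with GCAACT, and 1.77% and 1.51% began with GGCAAC. The adapter started after 33 bases in 80.1% of members and in 79.2% of all barcodes. Median GC content between the first 6 bases and the adapter was 52.0% in members and 53.6% in all barcodes. None of the 2544 members lay within a Levenshtein distance of 2 (single-base changes, insertions or deletions) of a barcode with more reads, and the same held for all 44423.

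The 0.2% ceiling cut through a continuous range. The members just under it were bc73 at 0.1997% (B, day 494), bc1139 at 0.1994% (T, day 32) and bc142 at 0.188% (B, day 494). The barcodes just over it were bc321 at 0.2012% (T, day 32), bc437 at 0.2016% (T, day 32) and bc81 at 0.203% (T, day 393). The T library of day 32 held only 525 barcodes, and its median listed barcode had 0.201% of the reads. 21 of the 66 barcodes removed by the ceiling were removed by that library alone.

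Many low shares added up to a large part of the Gr reads at days 187 and 266 and to a smaller part of the Mono reads. In B and T they made up a lasting part of the reads. The base is the barcode reads of a library, so cells without a listed barcode are outside it. In Gr the members together held 7.77%, 8.98%, 37.6%, 41.0%, 0.0813% and 0.0119% of reads on days 32, 119, 187, 266, 365 and 494, and none on day 553. In Mono the sums were 9.68%, 3.33%, 15.9%, 19.0%, 0.325% and 0.0178% on the same 6 days, and 0.00283% on day 553. Both myeloid series were high at days 187 and 266 and near 0 from day 365 on.

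In B the members held 5.77% of reads on day 32. From then on they held 24.6%, 25.8%, 26.9%, 38.4%, 35.6%, 53.6% and 21.0% on days 119, 187, 266, 365, 393, 494 and 553. In T they held 1.79% on day 32, and 9.90%, 13.9%, 16.4%, 19.4%, 19.4%, 15.3%, 16.5% and 12.3% on days 119, 187, 266, 365, 393, 494, 536 and 553. From day 119 the lowest B value lay above the highest T value. The B library of day 494 had only 789584 reads and the highest limit for a 0 among the B libraries. The T library of that day was shallower still, and its sum lay within the range of the other T libraries from day 119. The part of depth in these sums was not tested. The exact Clopper-Pearson 95% interval of any of these sums reached at most 0.110 percentage points to each side.

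Over the 3 days 119, 187 and 266 the summed share averaged 29.2% ± 17.6 in Gr, 25.8% ± 1.14 in B, 13.4% ± 3.28 in T and 12.7% ± 8.28 in Mono (SD, n = 3 days). Over days 365, 494 and 553 it averaged 37.7% ± 16.3 in B, 15.7% ± 3.59 in T, 0.0311% ± 0.0439 in Gr and 0.115% ± 0.182 in Mono (SD, n = 3 days). No test was made, since the members were chosen by listings in these libraries.

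At day 187 the Gr library listed 2234 of the 2544 members (87.8%), against 10.6% of all barcodes. At day 266 it listed 2111 members, against 11.0% of all barcodes, and at day 119 it listed 1227, against 4.53%. Mono listed 570 members at day 119 (1.82% of all barcodes), 1721 at day 187 (6.93%) and 1936 at day 266 (8.26%). Later Gr listed 24, 3 and 0 members on days 365, 494 and 553, against 0.155%, 0.0495% and 0.0405% of all barcodes, and Mono listed 77, 3 and 1, against 0.443%, 0.0270% and 0.0293%. B listed 1560, 2004, 1757 and 2011 members on days 119, 187, 266 and 365, against 18.8%, 30.3%, 20.2% and 18.7% of all barcodes. It listed 2142, 1512 and 1762 on days 393, 494 and 553, against 26.2%, 7.42% and 17.9%. T listed 1161, 567, 1241 and 1269 on days 119, 187, 266 and 365, against 19.0%, 4.86%, 10.3% and 7.95%. It listed 1563, 511, 1371 and 1060 on days 393, 494, 536 and 553, against 13.3%, 2.29%, 10.3% and 7.07%. B and T each listed the most members on day 393. These percentages follow from the rule, which asked for such listings, and nothing is read from them. Members made up 70.5% of the 808 barcodes listed in Mono at day 119 and 61.0% of the 2013 listed in Gr.

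A member was listed in a median of 13 of the 31 T, B, Gr and Mono libraries, with quartiles of 10 and 16 and a range of 4 to 25. The median over all barcodes was 2. From day 119 on, the median was 5 of 7 libraries in B, 3 of 8 in T, 2 of 6 in Gr and 2 of 6 in Mono. 698 members were listed in all 7 B libraries of that period, 150 in all 8 T libraries and 98 in all of both. From day 119 on, 1197 members were listed in a single Mono library, 647 in a single T library, 540 in a single Gr library and 114 in a single B library, and 381 had both 1 Gr and 1 Mono library. The rule asked for such listings and thereby bears on these counts. No share over all barcodes is given for them, and they are not read as a trait of the members. Only 943 would have met the rule had it asked for at least 2 libraries of day 119 or later in each lineage.

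The rule asked for listing in all 4 lineages over time, so listing in all 4 on 1 and the same day could only be as common or less. No share over all barcodes is given for these counts. 882 members (34.7%) were listed in T, B, Gr and Mono together on at least 1 day. On days 119, 187, 266 and 365 there were 209, 312, 664 and 2 of them. 62 members were listed in all 4 lineages at each of days 119, 187 and 266. T was the sparsest at day 187, where it listed 567 members.

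bc116 had the widest listing, with 25 of 31 libraries. In Gr it held 0.00952%, 0.0263%, 0.0968% and 0.111% on days 32, 119, 187 and 266, and was listed at 0 afterwards. In Mono it held 0.00661%, 0.0161%, 0.0482% and 0.0212% on the same days and 0.00524% on day 365. In T it ran from 0.00863% to 0.0513% over the 8 libraries from day 119 with a reading in every one, and in B from 0.0130% to 0.0593% over 7. It thus gave all 4 lineages up to day 266 and T and B up to day 553.

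The duration of listing differed between the myeloid and the lymphoid libraries. The last Gr or Mono library listing a member was that of day 266 for 2289 members (90.0%) and that of day 187 for 146. It was a library of day 365 or later for 103 (4.05%, against 0.515% of all barcodes). T or B still listed 2288 members (89.9%) at day 494 or later, against 27.8% of all barcodes, and 1472 were listed in both in that period. The rule fixed neither count, but it asked for T, B, Gr and Mono listings from day 119 on. This raises both against all barcodes, and nothing is read from these contrasts. For 1741 members (68.4%) the first and last listing lay 434 days apart, which is the whole period from day 119 to day 553. No share over all barcodes is given for this count or for the 1472 listed in both T and B, and the rule bears on both.

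The fall in myeloid listings coincided with the expansion of 6 other barcodes, bc1 to bc6, which had the highest mean share in nRBC. On days 266, 365, 494 and 553 they held 15.6%, 91.7%, 94.1% and 99.8% of Gr reads, and 41.1%, 91.7%, 99.9% and 99.8% of Mono reads. The reads left for all other barcodes fell to 301396 in Gr at day 365, against 2404995 at day 266. Of the reads outside bc1 to bc6 the members held 0.977% in Gr at day 365, against 48.6% at day 266, and 3.91% in Mono at day 365, against 32.2% at day 266. Most of the remaining myeloid reads at day 365 were of bc11 alone, with 7.95% of Gr and 6.47% of Mono. At day 266 bc11 held 0.0738% of Gr and 3.38% of Mono. It is part of the base of the shares just given. With bc11 also taken out, only 13278 reads were left in Gr and 58300 in Mono at day 365. On that base the members' shares at day 365 are much higher than 0.977% and 3.91%, and their falls from day 266 much smaller. The falls from 48.6% to 0.977% in Gr and from 32.2% to 3.91% in Mono thus include the rise of bc11. Their size without bc11 is not given here.

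How far these zeros show a loss was limited by the depth left. Had each of the 2111 members listed in Gr at day 266 kept its share of the reads outside bc1 to bc6, 1678 would have had 100 reads or fewer at day 365. Of the other 433, 15 (3.46%) were listed at day 365. In Mono 1800 of 1936 would have been at or under the limit, and 30 of the other 136 (22.1%) were listed. The same measure gave 733 of 1090 (67.2%) in T and 1478 of 1716 (86.1%) in B. With bc11 also taken out of the base, 0 of the 2111 Gr members and 0 of the 1936 Mono members would have been above the limit. At day 494 the measure outside bc1 to bc6 put 244 of the Gr members above the limit, of which 0 were listed, and 0 of the Mono members. With bc11 also out, 0 of the Gr members would have been above it. At day 553 none would have been above it in either lineage, with or without bc11, so a 0 on that day does not show the loss of a member that kept its share.

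The 103 members with myeloid reads at day 365 or later had few of them. 24 were listed in Gr at day 365, with 101 to 204 reads each (background 0.155% of all barcodes), and 77 in Mono, with 102 to 241 (background 0.443%). 2 of these were listed in both. Without the libraries of day 365 the count is 4, of 2451 members that then met the rule. 6 members were listed in Gr or Mono at day 494 or 553. bc565 had 127 reads (0.00334%) in Gr at day 494, after 0.00540%, 0.0129% and 0.0269% in Gr on days 119, 187 and 266 and 0.00508% in Mono at day 365. bc755 had 143 reads (0.00376%) in Gr at day 494, after 0.0163%, 0.0381% and 0.0119% in Gr on days 119, 187 and 266.

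bc2361 was the only member listed in Gr or Mono at day 553, with 107 reads (0.00283%) in Mono. That was its only Mono library of day 119 or later, and it also had 0.0138% in Mono at day 32. Its Gr shares were 0.00607% at day 119 and 0.00579% at day 266. Its B shares were 0.00686%, 0.0280%, 0.0348% and 0.0121% on days 119, 393, 494 and 553.

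Lineage balance was taken as the mean share in each lineage over the 6 days from day 119 that all 4 share. The mean was highest in B for 1740 members (68.4%, against 68.1% of all barcodes with a reading), so the share of members highest in B was near the background. It was highest in Gr for 434 (17.1%, against 6.01%), in T for 339 (13.3%, against 24.3%) and in Mono for 31 (1.22%, against 1.52%). The highest mean was at least 4 times the next for 348 members (13.7%), of which 292 were highest in B, 37 in T and 19 in Gr. That count depended on the zeros and the days: it was 43 with each 0 set to 100 reads, 197 without day 494 and 218 without day 187. Of all barcodes 67.9% passed that ratio. The rule asks for a reading in every lineage, and in Gr or Mono at day 119 or 187, and thereby removes barcodes of 1 lineage. Nothing is therefore read from this contrast or from those of the single lineages with all barcodes. Median mean shares of the members were 0.00959% in B, 0.00417% in Gr, 0.00248% in T and 0.00178% in Mono.

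The order of B and Gr depended on the days. Over days 119, 187 and 266 alone, a choice made after seeing the data, the mean was highest in Gr for 1178 members (46.3%, against 11.8% of all barcodes), in B for 982 (38.6%, against 60.0%), in T for 292 (11.5%, against 25.5%) and in Mono for 92 (3.62%, against 2.63%). The rule bears on these contrasts with all barcodes in the same way, and nothing is read from them. Without day 187 the 6-day count in Gr was 145 and without day 266 it was 171, of 1198 and 1653 members that then met the rule. With at least 2 libraries per lineage and days 119, 187 and 266 alone, 500 of 943 members were highest in Gr and 316 in B. With the mean over reads outside bc1 to bc6, 1700 were highest in B, 397 in Gr, 369 in T and 78 in Mono.

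Among members listed in both of 2 lineages on a day, the median log2 ratio gives the balance without zeros, on the scale of shares. Gr over Mono was 0.50, 0.84 and 0.92 on days 119, 187 and 266, over 434, 1482 and 1658 members, and the share was higher in Gr for 81.6%, 80.5% and 84.1% of them. B over Gr was 1.10, −0.37 and −0.34 on those days, over 853, 1769 and 1492 members. T over B was −1.12, 0.65 and −0.41 on those days, over 814, 489 and 931 members, and −0.62, −0.56 and −0.20 on days 365, 494 and 553, over 1123, 397 and 819. T over Gr was 0.02, 0.46 and −0.64 on days 119, 187 and 266, over 634, 499 and 1055 members. B over Mono was 1.40, 0.48 and 0.65 on the same days, over 425, 1411 and 1406 members, and T over Mono was 0.24, 1.48 and 0.32, over 314, 387 and 977. Among members listed in both libraries, Mono thus lay below each of the other 3 lineages on these 3 days. B against Gr, T against B and T against Gr changed sign between days. In the summed share of all members Mono instead lay above T on days 187 and 266, at 15.9% against 13.9% and 19.0% against 16.4%. On day 119 it lay below T, at 3.33% against 9.90%.

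Gr and Mono resembled each other more than other pairs in the log2 shares of these members. Pearson's r over members listed in both was 0.48, 0.44 and 0.50 for Gr with Mono on days 119, 187 and 266. It was 0.27, 0.17 and 0.27 for T with B, 0.20, 0.24 and 0.25 for B with Gr, and 0.14, 0.10 and 0.14 for T with Gr. These are descriptions over barcodes that share libraries and a lower limit, and they were not tested. By listing, 86.1% of the members in Mono at day 187 were also in Gr, against 87.8% of all members. Of those in Gr, 66.3% were also in Mono, against 67.6% of all members. At day 266 the same shares were 85.6% and 78.5%, against 83.0% and 76.1%. The overlap by listing lay near the rate over all members. The rule asked for listing in Gr or Mono at day 119 or 187, and in each of them from day 119. It thereby bears on these overlaps, and nothing is read from them.

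Single members showed each kind of balance. bc73 ranked among the 3 highest in B, Gr and Mono. Its mean over the 6 shared days was 0.103% ± 0.0557 in B, 0.0511% ± 0.0267 in T, 0.0429% ± 0.0559 in Gr and 0.0225% ± 0.0296 in Mono (SD, n = 6 days). In Gr it held 0.0305%, 0.114% and 0.113% on days 119, 187 and 266, and it was listed at 0 from day 365. In Mono it held 0.0129%, 0.0456% and 0.0719% on those days and 0.00480% at day 365. The spreads of B and Gr overlapped.

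bc99 and bc134 were the most T-sided of the named members. bc99 had 0.123% ± 0.0290 in T, 0.00221% ± 0.00541 in B, 0.000664% ± 0.00163 in Gr and 0.000922% ± 0.00226 in Mono (SD, n = 6 days). It was listed in all 8 T libraries from day 119, at 0.0537% to 0.175%, and in 2 B, 1 Gr and 1 Mono library. bc134 ran from 0.0526% to 0.142% in the 8 T libraries, with 3 B, 1 Gr and 1 Mono library listed at no more than 0.0121%. Their only Mono library from day 119 was that of day 119, and from that day no T value of either overlapped with a value of another lineage.

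bc83 had the highest 6-day mean in T after those 2. It held 0.0744% ± 0.0288 in T, 0.0558% ± 0.0208 in B, 0.0227% ± 0.0293 in Gr and 0.00697% ± 0.00827 in Mono (SD, n = 6 days), and it was 1 of the members with a reading in Gr at day 365, of 101 reads. bc82 was closer to even in T and B, at 0.0621% ± 0.0394 and 0.0681% ± 0.0408. The T and B values of both members overlapped.

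Beside bc73, bc141 and bc206 had the highest 6-day means in Gr, and bc202 and bc244 the highest in Mono. bc141 held 0.0212%, 0.0929% and 0.160% in Gr at days 119, 187 and 266, against 0.0154%, 0.0127% and 0.0169% in Mono. bc206 held 0.0226%, 0.0937% and 0.157% in Gr, against 0.0173%, 0.0105% and 0.0500% in Mono. bc202 held 0.0168%, 0.0919% and 0.124% in Gr, against 0.00527%, 0.0376% and 0.0908% in Mono. bc244 held 0.0196%, 0.117% and 0.10035% in Gr, against 0.0119%, 0.0300% and 0.0663% in Mono. In each of the 4 the Gr share was above the Mono share on all 3 days, and all 4 were still listed in T at day 536 and then in B at day 553.

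The library in which a member peaked was most often B of day 494, with 695 members (27.3%), followed by Gr of day 266 with 362, Gr of day 187 with 243 and B of day 365 with 200. A 0 in the B library of day 494 allows up to 0.0127% of reads. The T library of that day had fewer reads and was the peak of 74 members. The part of depth in these counts was not tested, and no share over all barcodes is given for them. Mono was the peak at days 32, 187 and 266 for 49, 29 and 19 members.

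Day 32 and the EOS and CD34p libraries entered the rule only through the ceiling. 1512 members (59.4%) were listed in at least 1 of the 4 libraries of day 32, against 60.1% of all barcodes. The 44423 barcodes include those listed at day 32 alone, which raises their percentage, whereas the rule asked each member for later listings. Only 31294 of them had a reading in the 4 lineages on the 6 shared days. Nothing is therefore read from this contrast or from the other day 32 contrasts below. By lineage, Mono listed 868 members (34.1%, against 23.0%), B 844 (33.2%, against 35.6%), Gr 615 (24.2%, against 19.9%) and T 11 (0.432%, against 1.18%). The ceiling lowers the T count, since the median listed barcode of that library had 0.201% of the reads. That library alone kept out 21 barcodes, so nothing is read from the T contrast. 185 members (7.27%, against 2.98% of all barcodes) were listed in B, Gr and Mono together. The other 1032 members had no reading at day 32, when a 0 allowed up to 100 reads.

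The 11 members listed in T at day 32 all had their highest share there, from 0.114% to 0.199% with a median of 0.181%. bc1139 was one of them. It had 3427 reads in T at day 32, and afterwards at most 0.00992%, in Mono at day 187. In T it then had 0.00392% at day 119 and 0.00341% at day 536. It thus came close to the ceiling through 1 library of few barcodes.

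EOS of day 494 listed 1 member, bc85, with 128 reads (0.00340%), against 0.0810% of all barcodes. bc85 held 0.184% of B reads and 0.0368% of T reads on that day and was at 0 in Gr and Mono. CD34p of day 553 listed 1 member, bc2273, with 141 reads (0.00373%), against 0.0270% of all barcodes. It was listed in T (0.00456%) and B (0.00564%) on that day. Both were named after their values were seen. bc1 to bc6 held 99.7% of EOS and 99.9% of CD34p reads, so 100 reads equalled 0.800% and 1.77% of the reads left, and a member with less than that could not have been listed there.

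At the setting used, few members shared a time course closely. Among the 2337 members listed in at least 8 of the 31 libraries, 30 pairs had r of at least 0.95 on log2(percent + 0.01), and complete linkage at that value joined 44 members into 22 groups of 2. The median r of all pairs was 0.39. The number of groups depended on the setting, with 219 at r of 0.90 and 52 with a pseudocount of 0.001%. Most members lay close to the limit for a 0, and how far this lowered r was not tested. A low r is therefore not read as separate cells. The closest pair was bc2368 and bc2485, with r of 0.98. They were listed in the same 13 libraries. In Gr bc2368 held 0.0154%, 0.00756%, 0.0301% and 0.0184% at days 32, 119, 187 and 266, and bc2485 held 0.0127%, 0.00841%, 0.0296% and 0.0173%. bc99 and bc134 were the next pair, also with r of 0.98, and shared 12 libraries. Their values ran side by side mainly through T.

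None of the 2337 members compared reached r of 0.95 with 1 of the 51 abundant barcodes that held 1% of reads or more somewhere. The highest r of a member to any of them was 0.94 and the median of the best r was 0.24, over 31 libraries. Since the points share libraries, depth and zeros, these values are descriptions.

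Members were listed in a median of 13 libraries, against 19 for the 66 barcodes that met all other conditions and reached the ceiling. Barcodes with higher shares pass the limit for a 0 more readily, so the ceiling bears on this contrast and nothing is read from it. The 6-day mean was highest in T for 13.3% of the members and in B for 68.4%. Among the 66 it was highest in T for 33 (50.0%), in B for 16, in Gr for 9 and in Mono for 8. The summed mean shares were 31.7% in B, 14.5% in T, 14.6% in Gr and 6.42% in Mono for the 2544 members, and 1.28%, 13.0%, 7.43% and 9.17% for the 66. The order of the sums depended on the day outside B. In Mono the members held 3.33%, 15.9%, 19.0% and 0.325% on days 119, 187, 266 and 365, and the 66 held 41.7%, 9.53%, 3.50% and 0.235%. The higher 6-day Mono sum of the 66 thus rested on day 119. In T the members held 9.90%, 13.9% and 16.4% on days 119, 187 and 266, and the 66 held 20.3%, 16.0% and 13.1%. The differences were not tested.

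2 further sets met the rule but for 1 lineage, 721 barcodes at 0 in all T libraries from day 119 and 70 at 0 in all B libraries. The median highest share was 0.0279% in members, 0.0168% in the 721 and 0.0139% in the 70. Members were listed in a median of 13 libraries, the 721 in 7 and the 70 in 5. As the median share lay closest to the limit for a 0 in the 70, a missing lineage and a reading under the limit cannot be told apart in these sets. At day 32 at least 1 library listed 59.4% of members, 52.3% of the 721 and 52.9% of the 70.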

How the data were processed

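DNA of sorted blood cells was amplified by 28 cycles of PCR from 200 ng, per the labels' protocols. The authors deposited 1 table of read counts, 44423 sequences of 50 bases by 38 libraries. The unit is inferred from the values, since no header states it. The sources used here do not state how barcodes were read or why no count from 1 to 100 occurs. Every column matched a sample title.

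Shares are percent of the column sum, computed with pandas 2.3.3 and numpy 2.4.6 in Python 3.11.15. Likeness used complete linkage (scipy 1.17.1) on log2(percent + 0.01). Intervals are exact. Selection, grouping and distances were tested on simulated data with planted members.

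No test was run, since the members were chosen by these counts, each library is unreplicated and serial libraries of 1 animal are not replicates. The members, lists and measures were chosen with earlier results of these data known. Named members were the 6 in most libraries, the 3 highest in each lineage, the 3 last seen in Gr or Mono, the 3 on each side of the ceiling and the closest pair. Of these, bc89, bc93, bc94, bc97 and bc223 are not described singly. No batch is given in the labels. Alternatives were other ceilings, 1 common floor, 2 libraries per lineage, no nRBC condition, no near sequences, each day left out, reads outside bc1 to bc6, each 0 at 100 reads, and other settings of likeness. 3 settings of days and base and 1 of the ceiling were added after seeing the data.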

Additional observations from a re-analysis of the deposited data

How the results depend on the processing

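Results kept within 1.5 times of the reported counts with a ceiling of 0.1% or 0.5% (EOS apart, with 0 and 2 members against 1). The same held with no condition on nRBC and with the ceiling not applied to the T library of day 32, which gave 2565 members. Leaving out near sequences could change nothing, since no member lay within a distance of 2 of a barcode with more reads. The depth limited the rest. With a common floor of 0.0131%, the limit of the shallowest library, 279 members met the rule. Of these 0 were in Gr or Mono at day 365 or later and 275 in T or B at day 494 or later, 204 were highest in B, 45 in Gr, 29 in T and 1 in Mono, 16 passed the ratio of 4, 38 were listed at day 32, and 0 in EOS and 0 in CD34p. With at least 2 libraries per lineage 943 met it, with 921 in T or B at day 494 or later, 687 highest in B, 129 in Gr, 122 in T and 5 in Mono, 75 past the ratio of 4, 583 at day 32 and 0 in CD34p.

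Over days 119, 187 and 266 only, 982 were highest in B, 1178 in Gr and 92 in Mono, and 175 passed the ratio of 4. With both restrictions 500 of 943 were highest in Gr, 316 in B and 99 in T, and 24 passed the ratio. With each 0 at 100 reads 282 were highest in Gr and 12 in Mono, and 43 passed the ratio. Outside bc1 to bc6, 78 were highest in Mono. With bc11 also taken out, 0 members of Gr and 0 of Mono were above the limit at day 365. At r of 0.90 there were 219 likeness groups of up to 5 members, and with a pseudocount of 0.001% 52 of up to 6.

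Leaving out each day gave 1198 to 2545 members, 4 to 118 of them in Gr or Mono at day 365 or later, 1118 to 2289 in T or B at day 494 or later, 898 to 1740 highest in B, 145 to 643 in Gr, 151 to 356 in T and 4 to 43 in Mono, 197 to 353 past the ratio, 747 to 1512 at day 32, 1 to 1 in EOS and 0 to 1 in CD34p. The lowest number of members came without day 187, which the rule itself uses. No paired analysis was possible because no result comes from a test.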
